A study of Mus musculus with 18 samples.

Results

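Elastic fibres give stretch and recoil to arteries, lung and skin, and they are built around a core of cross-linked elastin laid down on a scaffold of fibrillin microfibrils. Fibulins, EMILINs and microfibril-associated proteins connect the core to the scaffold, and fibrillin microfibrils also hold latent complexes of transforming growth factor β (TGF-β) in the matrix. The 10 genes described here were chosen by name from the 55450 genes of the count table: elastin (Eln), the fibrillins Fbn1 and Fbn2, the fibulins Fbln1, Fbln2, Fbln5 and Efemp2 (fibulin-4), the microfibril proteins Mfap2 and Mfap5, and the elastin interface protein Emilin1. All 10 had a row, and 9 of the 10 passed the filter on low counts. Eln did not.

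The data were poly(A) RNA sequencing of mouse embryonic fibroblasts (MEF cells, a commercial stock), in 18 libraries and 6 groups of 3. Cells received the empty pcDNA3 vector or a plasmid named Col1a1-miR-29b or CMV-miR-29b, and were left untreated or given TGF-β for 24 h from 6 h after transfection. Both miR-29b plasmids carry the human miR-29b-1 sequence behind EGFP. A rat collagen promoter drives it in Col1a1-miR-29b and a viral promoter in CMV-miR-29b, and both also carry a red fluorescent protein gene. Empty pcDNA3 has no miR-29b-1, EGFP or red fluorescent protein insert, so the effect of miR-29b and that of the rest of the insert cannot be told apart. Plasmids were dosed by molar amount, so the mass of DNA differed with plasmid size. It was greater for Col1a1-miR-29b than for CMV-miR-29b, and its effect cannot be told apart from that of the vector in any comparison between vectors. The comparisons asked how TGF-β moved these genes and whether their levels differed between cells with a miR-29b plasmid and cells with empty vector.

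Total counts ran from 65898017 to 80332633 per library. The collagen-rich fibroblast marker list of 10 genes summed to 1910–2743 CPM (counts scaled to library size) without TGF-β and 3629–5649 CPM with it, although Lum was at 0 in all 6 groups and Thy1 at 0 in 2. The 5 epithelial markers summed to at most 1.09 CPM and the 4 endothelial markers to at most 3.03 CPM, but the endothelial sum was 0.936–1.85 CPM without TGF-β and 2.09–3.03 CPM with it, and that of the 4 smooth muscle markers was 110–126 and 148–158 CPM. The 4 immune markers summed to 8.75–13.4 CPM, with Adgre1 or Cd3e at 0 in every group. The part of these markers in the results was not tested. Fewer cells of a type and less RNA per cell cannot be told apart in such bulk libraries. In both Col1a1-miR-29b groups, 1 of the 3 libraries has a column letter, f, that no sample label carries, and its values are used with its group. In empty-vector cells TGF-β raised the known targets Acta2 by 1.64 ± 0.14 and Col1a1 by 1.26 ± 0.08 on the log2 scale (SE, n = 3 per group, edgeR adjusted p = 2.11e-06 and 6.81e-08). Mir29b-1 had 0 counts in the 6 empty-vector libraries, 0 to 1 in Col1a1-miR-29b cells, 2 to 6 where these had TGF-β, and 110 to 309 in the 6 CMV-miR-29b libraries, while Mir29b-2 had at most 1 in any library. These are reads assigned to the miRNA genes and not levels of the mature miRNA, which poly(A) libraries do not hold. Whether they came from the plasmid or from the mouse genes was not tested.

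MicroRNAs pair through their seed, bases 2 to 8, with short matches in the 3′ untranslated region (3′ UTR) of mRNAs, and the 3 mature miR-29 forms of the mouse are shown because that seed defines the match searched below. The sequences are those of RefSeq on GRCm38.p6, 5′ to 3′, with the seed in capitals.
miR-29a-3p: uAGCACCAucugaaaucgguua
miR-29b-3p: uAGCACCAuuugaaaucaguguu
miR-29c-3p: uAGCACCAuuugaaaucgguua
All 3 share 1 seed. The miR-29b form has 2 genes, Mir29b-1 on the minus strand (chr6:31063025-31063047) and Mir29b-2 on the plus strand (chr1:195037091-195037113), and both hold the same mature sequence.

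The letters opposite that seed, TGGTGCT, were searched on the sense strand in the longest annotated 3′ UTR of each gene. They occurred in 5 of the 10 genes: 3 times in Eln (3′ UTR of 1188 bases), 2 times in Fbn1 (992 bases), 2 times in Mfap5 (859 bases), and 1 time each in Fbn2 (1635 bases) and Mfap2 (404 bases). Fbln1, Fbln2, Fbln5, Efemp2 and Emilin1 held none in 3′ UTRs of 325 to 4177 bases. Among the 14375 tested genes with an annotated 3′ UTR, 14.8% held at least 1 match and 2.24% at least 2. The matches in Eln and Fbn1 are shown because these are the member with the most matches and the member that the miR-29b comparisons turn on; capitals mark the 7 matching bases, and all lie in exonic 3′ UTR sequence on the minus strand (GRCm38).
Eln match 1, chr5:134703730-134703757: gacctcatcaacgtTGGTGCTactgctt
Eln match 2, chr5:134703483-134703510: tctccaagggaaatTGGTGCTacatgtt
Eln match 3, chr5:134703470-134703497: ttggtgctacatgtTGGTGCTtcttctt
Fbn1 match 1, chr2:125301167-125301194: ttctgttgtctgttTGGTGCTagtaaat
Fbn1 match 2, chr2:125300917-125300944: gtgagggtttgtaaTGGTGCTtattaag
Both of the first Eln matches and the first Fbn1 match are followed by an A, and the windows of Eln matches 2 and 3 overlap. In Mfap5 the second match starts at position 122528798 of chromosome 6, beyond the end of the gene in the deposited table (122528766), so it lies outside the gene as listed there. A match of these letters is a description of the sequence and does not show that the site is used.

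The 10 genes fell into 2 classes of abundance. Levels between genes are given in FPKM, fragments scaled to transcript length and library size. Fbln2 was the highest in untreated empty-vector cells at 33.3 ± 1.96, followed by Efemp2 at 20.1 ± 0.767 and Fbn1 at 11.9 ± 0.358 (SD, n = 3). Fbln1 was at 6.94 ± 0.615, Fbln5 at 4.74 ± 0.132 and Emilin1 at 4.48 ± 0.462 (SD, n = 3). The ranges of Fbln5 and Emilin1 overlapped, while each higher neighbour pair in that order was separated by more than its spread. The other 4 genes stood far below. Mfap5 was at 0.159 ± 0.0956 and Mfap2 at 0.142 ± 0.025 FPKM with overlapping ranges, Fbn2 was at 0.0127 ± 0.0084 FPKM, and Eln was listed at 0.0001, the value that stands for 0, in 2 of the 3 libraries (SD, n = 3). With TGF-β the order changed in the empty-vector cells. Fbn1, at 22.6 ± 0.887 FPKM, passed Efemp2, at 20.5 ± 1.78 FPKM, with overlapping ranges, and Emilin1, at 6.81 ± 0.296 FPKM, passed Fbln5, at 3.78 ± 0.353 FPKM, with ranges apart (SD, n = 3).

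**Figure D1:**
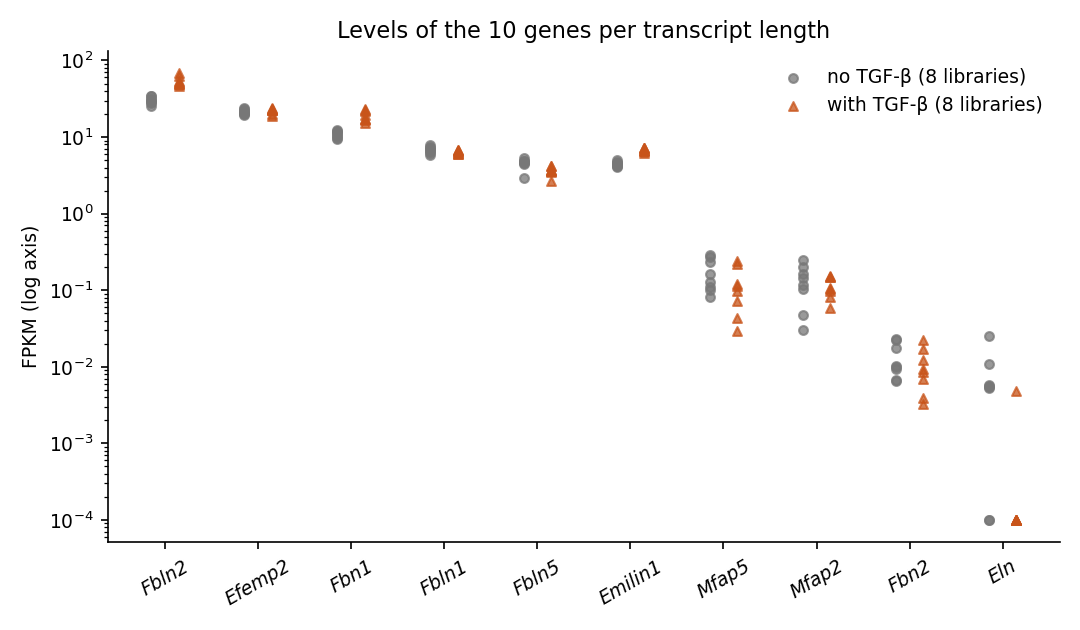
FPKM (log axis) of each gene in the 16 libraries with a usable FPKM column, circles without and triangles with TGF-β. Fbln2 to Emilin1 lie at 2.67 FPKM or above in every library, while Mfap5, Mfap2, Fbn2 and Eln lie at 0.291 FPKM or below; points at 0.0001 stand for 0.

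TGF-β raised 3 of the 9 tested members, Fbn1, Fbln2 and Emilin1, and it did so in all 3 vector backgrounds, which share no libraries. None of the 9 fell past the threshold of an adjusted p below 0.05 in any of them, and Eln was not tested. Of all 21161 genes tested, 3.88% were called higher and 2.01% lower in empty-vector cells, 3% and 1.32% in Col1a1-miR-29b cells, and 3.08% and 1.87% in those with CMV-miR-29b. For empty-vector cells the 9 tested members had a median log2 fold change of 0.06, and all tested genes had one of 0.00.

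Fbn1 encodes fibrillin-1, the main structural protein of microfibrils and the gene mutated in Marfan syndrome. It lies on the minus strand of chromosome 2 (chr2:125300594-125507993, ENSMUSG00000027204), and the predicted gene Gm9913 overlaps it on the other strand. In empty-vector cells Fbn1 had 167, 156 and 161 CPM without TGF-β and 317, 297 and 329 CPM with it, so that the lowest treated library was far above the highest untreated one. The rise was 0.96 ± 0.06 on the log2 scale, a fold of 1.95 (SE, n = 3 per group, edgeR adjusted p = 9.36e-08). In Col1a1-miR-29b cells the values went from 136, 126 and 132 CPM to 206, 225 and 208 CPM. This was a rise of 0.70 ± 0.06 on the log2 scale, 1.62-fold (SE, edgeR adjusted p = 4.31e-06). In CMV-miR-29b cells they went from 155, 144 and 133 CPM to 231, 264 and 234 CPM, a rise of 0.76 ± 0.06, 1.69-fold (SE, edgeR adjusted p = 1.57e-06). Groups with and without TGF-β did not overlap in any background.

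Fbln2 encodes fibulin-2, a secreted glycoprotein that binds fibrillin-1 and elastin. It lies on the plus strand of chromosome 6 (chr6:91212455-91272540, ENSMUSG00000064080). In empty-vector cells it had 248, 221 and 242 CPM without and 336, 357 and 458 CPM with TGF-β. Treated library e stood well above c and d, and all 3 were above every untreated library. The rise was 0.70 ± 0.12 on the log2 scale, 1.62-fold (SE, n = 3 per group, edgeR adjusted p = 0.002). In Col1a1-miR-29b cells Fbln2 had 195, 198 and 176 CPM without and 382, 371 and 377 CPM with TGF-β, and the treated libraries lay within a narrow band. In CMV-miR-29b cells it had 181, 207 and 217 CPM without and 351, 363 and 489 CPM with TGF-β, again with treated library e above the others. The Col1a1-miR-29b groups have c, d and f and no library e, so their narrow band cannot be set against a library of that letter. Both rises were 0.99 ± 0.12 on the log2 scale, 1.99-fold (SE, edgeR adjusted p = 9.89e-05 and 9.2e-05).

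Emilin1 encodes a glycoprotein found where elastin meets the microfibrils, and its product is known to restrain the maturation of TGF-β precursor. It lies on the plus strand of chromosome 5 (chr5:30913402-30921277, ENSMUSG00000029163). In empty-vector cells its values were 24.5, 22.4 and 27.3 CPM without and 37.1, 37.9 and 40.5 CPM with TGF-β. Those of Col1a1-miR-29b cells were 25.5, 25 and 20.6 CPM and then 36.8, 39.7 and 37.2 CPM. In CMV-miR-29b cells they were 25.6, 23.2 and 23.2 CPM and then 34.2, 36.9 and 40.1 CPM. Every treated library was above every untreated one. The rises were 0.64, 0.68 and 0.63 on the log2 scale in that order, each with an SE of 0.09, or 1.56-, 1.6- and 1.55-fold (n = 3 per group, edgeR adjusted p = 0.000339, 0.000231 and 0.00046).

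**Figure D2:**
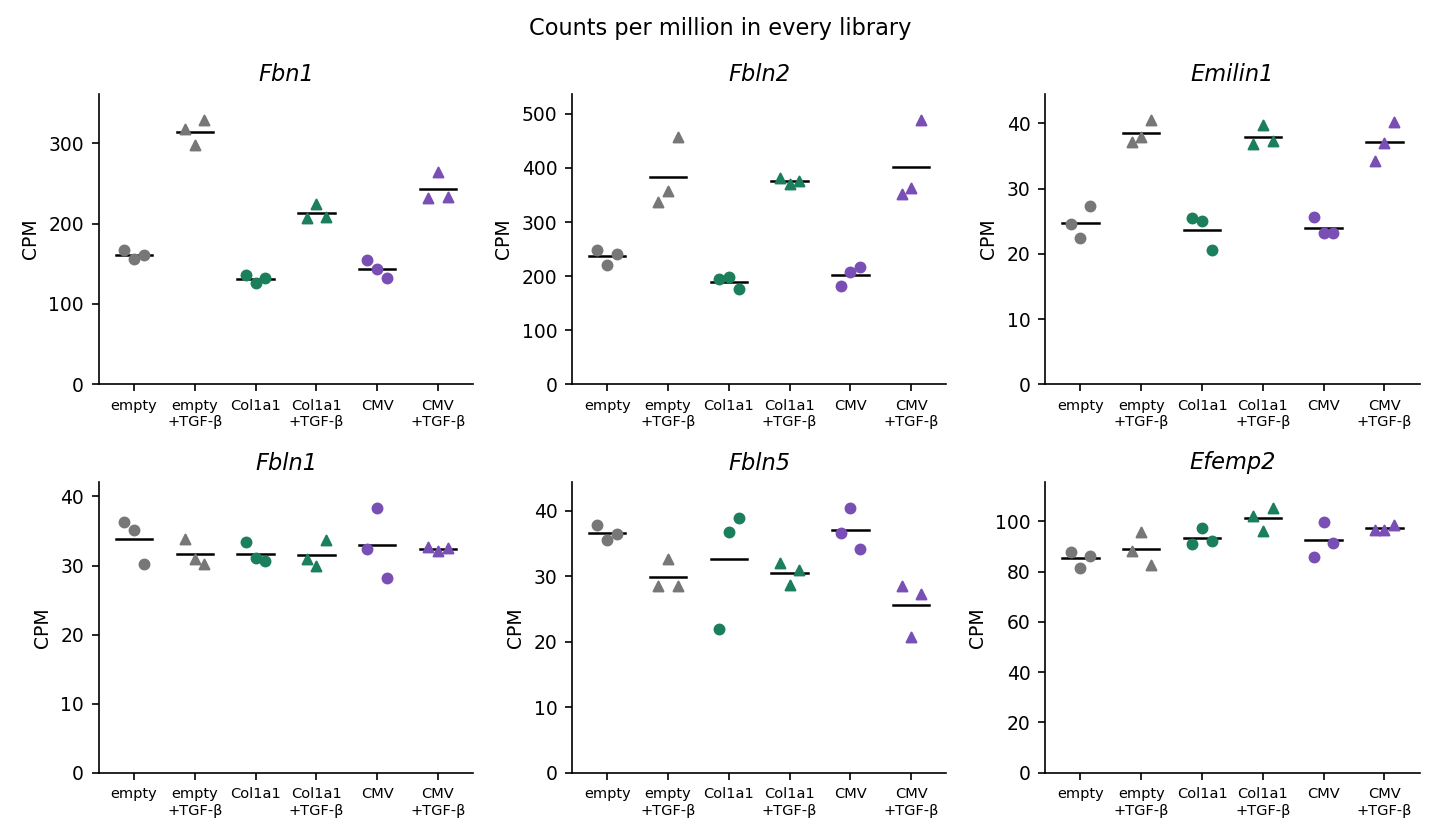
CPM of the 6 abundant genes in each library by vector and treatment (circles without, triangles with TGF-β; line, mean of 3). Fbn1, Fbln2 and Emilin1 are higher in every TGF-β library than in the untreated libraries of the same vector, and Fbn1 with TGF-β is lower in both miR-29b groups (206 to 264 CPM) than in empty-vector cells (297 to 329 CPM).

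The other 3 abundant genes did not pass the TGF-β threshold. The share of all genes whose groups did not overlap was not taken. With 3 against 3 libraries the smallest p that a permutation test could give is 0.1. A lack of overlap is therefore a description and does not by itself show a change. Fbln5 encodes fibulin-5, which binds elastin and cell-surface integrins. It had 35.5 to 37.8 CPM without and 28.5 to 32.6 CPM with TGF-β in empty-vector cells, with every treated library lower, and a log2 fold change of −0.29 ± 0.16 (SE, n = 3 per group, edgeR adjusted p = 0.41). In CMV-miR-29b cells it had 34.2 to 40.4 CPM without and 20.8 to 28.5 CPM with TGF-β, again without overlap, with −0.54 ± 0.16 (SE, edgeR adjusted p = 0.0832, with 0.0228 in DESeq2 and 0.0228 to 0.295 over the alternatives). In Col1a1-miR-29b cells the untreated libraries spread from 22 to 39 CPM around the treated ones at 28.7 to 32 CPM. There the log2 fold change was −0.09 ± 0.16 (SE, edgeR adjusted p = 0.903). Untreated library c was the low one, at 22 CPM against 36.8 for d and 39 for f. The log2 fold change turned positive without library d (0.0077) or f (0.047) of the untreated Col1a1-miR-29b group. It reached −0.32 with other single libraries left out.

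Efemp2, fibulin-4, brings lysyl oxidase to elastin and is required for elastic fibre assembly. It stayed between 81.5 and 105 CPM in all 18 libraries. Its gene overlaps Mus81 on the opposite strand (chr19:5473954-5482517). Whether the counting used strand is not given in the sources used here, so reads of the 2 genes may not be told apart. The same limit holds for Fbn1 with Gm9913, Eln with Gm30003 and Fbn2 with Gm26507, which also overlap on opposite strands. Fbln1, which encodes fibulin-1, a component of elastic fibres and basement membranes, stayed between 28.3 and 38.3 CPM. For these 2 genes the spread was small enough to bound the change: over the 9 comparisons between 2 groups, the 95% intervals of the log2 fold change lay between −0.19 and 0.32 for Efemp2 and between −0.30 and 0.26 for Fbln1.

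**Figure D3:**
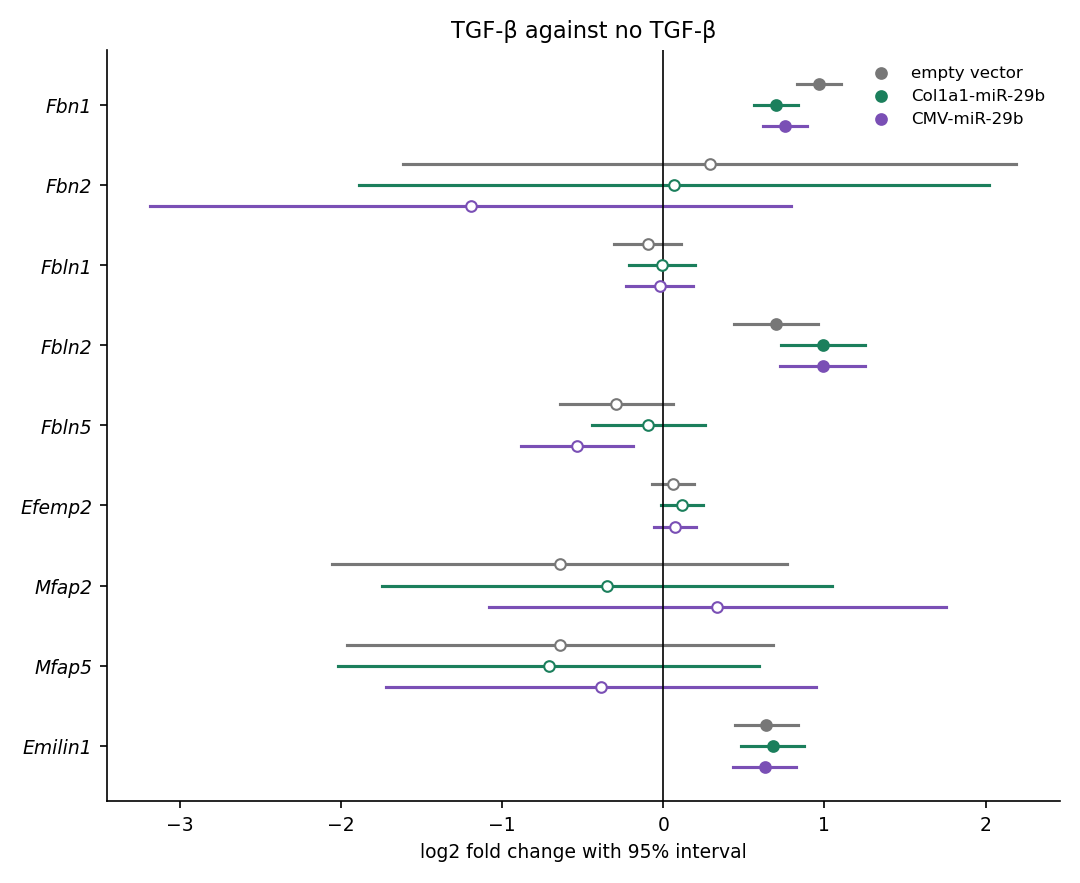
Log2 fold change with TGF-β and its 95% interval for the 9 tested genes in each vector background; filled points passed the threshold (edgeR adjusted p below 0.05). Fbn1, Fbln2 and Emilin1 lie to the right of 0 in all 3 backgrounds, and the intervals of Fbn2, Mfap2 and Mfap5 span several log2 units.

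The remaining 4 genes were near the limit of detection. Eln encodes tropoelastin, the soluble precursor of the elastin core, and lies on the minus strand of chromosome 5 (chr5:134702593-134747323, ENSMUSG00000029675), where the antisense gene Gm30003 overlaps it. It had 0, 0 and 4 counts in untreated and again 0, 0 and 4 in TGF-β-treated empty-vector cells, 4, 4 and 0 in untreated Col1a1-miR-29b cells, and 20, 8 and 4 in untreated CMV-miR-29b cells. In both miR-29b groups with TGF-β all 6 libraries were at 0. In all, Eln had 48 counts, and 11 of the 18 libraries had none. A count of 0 allows up to 3 counts where counts rise in steps of 1. All 7 nonzero counts were multiples of 4, a property of 33.8% to 36.7% of all counts between 1 and 40 in a library, where even spacing would give 25%. The limit of 3 counts may therefore not hold for Eln. The 9 untreated libraries held 44 counts of Eln, 20 of them in 1 library, and 3 had none. The 9 libraries with TGF-β held 4, and 8 had none. No fold is given for Eln, a change in it was not tested, and counts this low allow no conclusion in either direction.

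Fbn2 encodes fibrillin-2, the fibrillin of embryonic microfibrils, and had 0 to 28 counts per library. Mfap2, which encodes the microfibril glycoprotein MAGP-1, had 4 to 26 counts, and Mfap5, which encodes the related MAGP-2, had 10 to 84 counts. None of these 3 genes passed the threshold in any comparison. The replicate spread estimated by edgeR, as a coefficient of variation, was 65.0% for Fbn2, 46.5% for Mfap2 and 51.2% for Mfap5, against 6.89% for Fbn1, 6.95% for Efemp2 and a median of 18.1% over all tested genes. Over the 9 comparisons between 2 groups the outermost bounds of the 95% intervals were −3.41 and 2.49 for Fbn2, −2.13 and 1.84 for Mfap2 and −2.17 and 1.84 for Mfap5 on the log2 scale. These bounds come from different comparisons and are not the width of any 1 interval. The SE of a comparison was 0.89 to 0.94 for Fbn2, 0.65 to 0.67 for Mfap2 and 0.61 to 0.63 for Mfap5. Changes of the size of these SEs could not be told from none. All 4 low genes hold a match to the miR-29 seed, and of the 6 genes with over 1000 counts in every library Fbn1 alone does. At least 1 match was held by 14.8% of the tested genes with an annotated 3′ UTR, which do not include Eln. The share among genes of low counts was not taken, and a relation between matches and level was not tested.

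**Figure D4:**
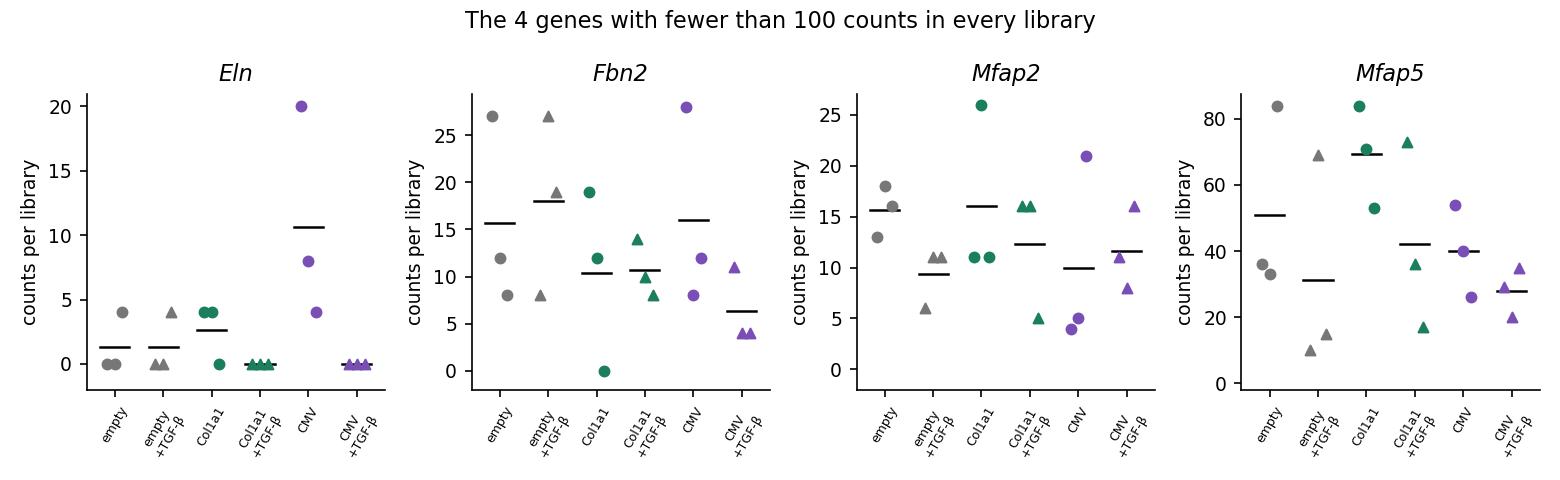
Raw counts per library of Eln, Fbn2, Mfap2 and Mfap5 by vector and treatment (circles without, triangles with TGF-β; line, mean of 3). Eln lies at 0 in 11 of 18 libraries and at most at 20, and replicates of 1 group differ widely in the other 3 genes.

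Fbn1 was also the member that differed between vectors. With TGF-β it was at 206, 225 and 208 CPM in Col1a1-miR-29b cells and at 317, 297 and 329 CPM in empty-vector cells. The groups did not overlap, and the difference was −0.56 ± 0.06 on the log2 scale, 0.677-fold (SE, n = 3 per group, edgeR adjusted p = 0.000224). It was the 1 member called lower, and 0 were called higher, where 7.63% of all tested genes were called lower and 5.31% higher. The fibroblast marker sum with TGF-β was lower as well, at 3629–3762 CPM in Col1a1-miR-29b and 3801–4238 CPM in CMV-miR-29b cells against 4704–5649 CPM in empty-vector cells, and its part in the Fbn1 difference was not tested. That sum includes Col1a1, Col1a2 and Col3a1, and the paper reported lower collagen genes with both miR-29b vectors. It is therefore not a measure of fibroblast content apart from collagen levels. The treated Col1a1-miR-29b mean of 213 CPM was still above the untreated empty-vector mean of 161 CPM.

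With CMV-miR-29b and TGF-β, Fbn1 had 231, 264 and 234 CPM, again below every empty-vector library, and the difference was −0.37 ± 0.06 on the log2 scale, 0.773-fold, with a 95% interval of −0.51 to −0.24 (SE, n = 3 per group). The adjusted p was 0.0603 with edgeR, which is short of the threshold, and 0.000377 with DESeq2 (0.000377 to 0.319 over the alternatives, and 0.0282 without library d of the treated empty-vector group). In this comparison edgeR called 2 genes, 0.00945% of those tested, and none of the members. The empty-vector libraries are the same in both comparisons, so these are not independent. CMV-miR-29b and Col1a1-miR-29b cells with TGF-β were compared directly as well: Fbn1 was 0.19 ± 0.06 higher on the log2 scale with CMV-miR-29b, with a 95% interval of 0.05 to 0.33 (SE, n = 3 per group, edgeR adjusted p = 0.141). No member was called there, against 1.93% of all genes.

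Without TGF-β Fbn1 had 136, 126 and 132 CPM in Col1a1-miR-29b cells against 167, 156 and 161 CPM in empty-vector cells. The groups did not overlap, with a difference of −0.30 ± 0.06 on the log2 scale, 0.815-fold (SE, n = 3 per group, edgeR adjusted p = 0.0151). It was the 1 member called lower and 0 were called higher, against 3.7% and 2.57% of all genes. The call, though not the size of the difference, depended on single libraries. The log2 difference was −0.28 (edgeR adjusted p = 0.0558) without library c of the empty-vector group, −0.29 (0.059) without library d of the Col1a1-miR-29b group, and −0.30 (0.0569) without both f libraries, a setting added with the results already in view. The adjusted p ran from 0.000874 to 0.0929 over the alternatives. In untreated CMV-miR-29b cells Fbn1 had 155, 144 and 133 CPM, all below the empty-vector libraries, at −0.17 ± 0.06 (SE, edgeR adjusted p = 0.828), where edgeR called 1 gene, 0.00473% of those tested, and no member. Untreated CMV-miR-29b and Col1a1-miR-29b cells overlapped, with a Fbn1 difference of 0.13 ± 0.06 (SE, edgeR adjusted p = 0.329), and no member was called against 1.81% of all genes. That share, 212 genes higher and 170 lower, was unstable, with 27 and 34 genes without library c of the untreated CMV-miR-29b group and 11 and 7 with only the groups compared.

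**Figure D5:**
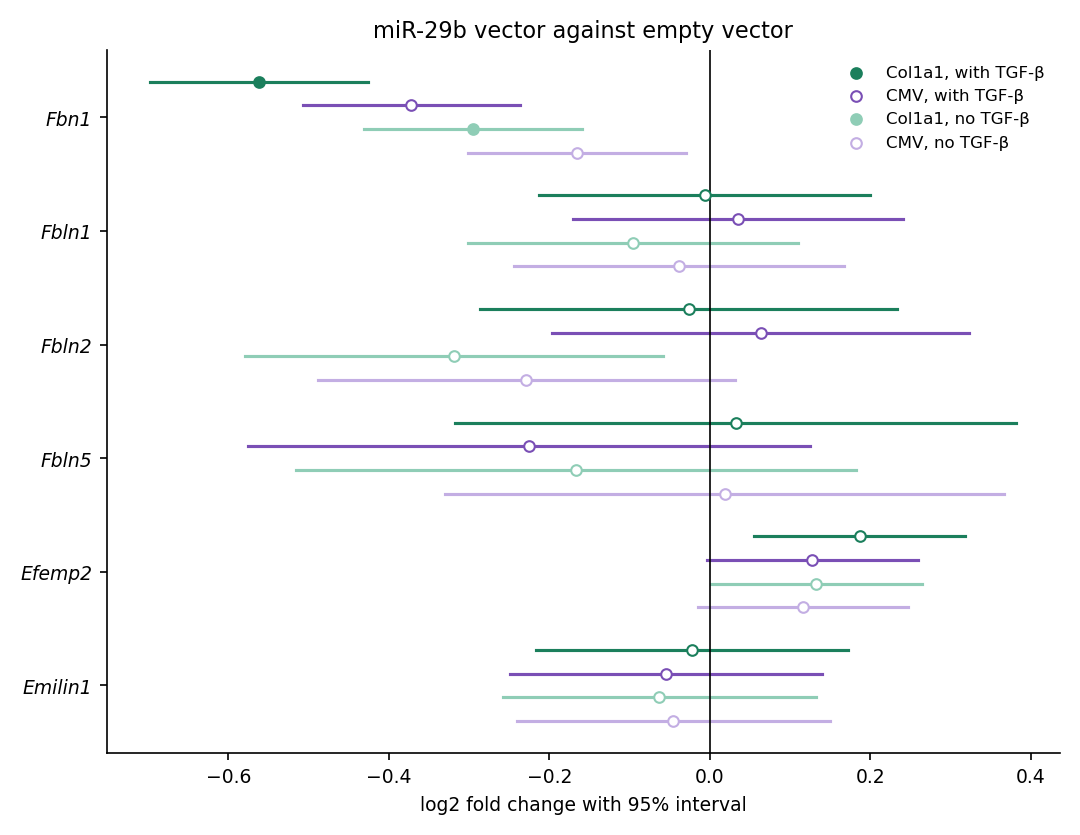
Log2 fold change of the 6 abundant genes in each miR-29b vector against empty vector with and without TGF-β, with 95% intervals; filled points passed the threshold (edgeR adjusted p below 0.05). The 4 Fbn1 intervals lie below 0, and the 2 for Col1a1-miR-29b are called.

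Fbln2 and Emilin1, which rose with TGF-β as Fbn1 did, showed no called difference between vectors. With TGF-β, Fbln2 had means of 377 ± 5.46 CPM in Col1a1-miR-29b, 401 ± 76.4 in CMV-miR-29b and 384 ± 65.1 in empty-vector cells (SD, n = 3), and the 95% intervals of the log2 difference from empty vector were −0.29 to 0.23 and −0.20 to 0.32. The wider SDs of CMV-miR-29b and empty-vector cells include a high library e, a letter that the Col1a1-miR-29b groups lack. Emilin1 had 37.9 ± 1.59, 37.1 ± 2.99 and 38.5 ± 1.78 CPM (SD, n = 3), with intervals of −0.22 to 0.17 and −0.25 to 0.14. The Fbn1 difference of −0.56 between Col1a1-miR-29b and empty vector lay outside the intervals of both genes. In the uncalled results that follow, groups of 3 without overlap do not by themselves show a difference. Without TGF-β, Fbln2 was lower in all 3 Col1a1-miR-29b libraries (176 to 198 CPM) than in the empty-vector libraries (221 to 248 CPM), at −0.32 ± 0.12 on the log2 scale (SE, n = 3 per group, edgeR adjusted p = 0.137, with 0.0452 to 0.37 over the alternatives). Efemp2 with TGF-β lay the other way, at 96.2 to 105 CPM in Col1a1-miR-29b against 82.7 to 95.8 CPM in empty-vector cells, a difference of 0.19 ± 0.06 without overlap (SE, n = 3 per group, edgeR adjusted p = 0.059, with 0.0189 to 0.311 over the alternatives and 0.0189 without library d of the treated empty-vector group).

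Whether the TGF-β response itself differed between vectors was tested as a difference of differences in the same fit. The Fbn1 response was 0.27 ± 0.09 smaller on the log2 scale in Col1a1-miR-29b than in empty-vector cells (SE, n = 3 per group, unadjusted p = 0.00965 and adjusted p = 1, edgeR). It was 0.21 ± 0.09 smaller in CMV-miR-29b cells (SE, n = 3 per group, unadjusted p = 0.0364 and adjusted p = 0.922, edgeR). In both tests edgeR called no gene at all (0% of the genes tested), while 961 and 1129 genes had an unadjusted p below 0.05, and DESeq2 called 27 and 19. No member was called by either tool, so the response of none of these genes was shown to depend on the vector.

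Across the 18 libraries the 3 genes that rose with TGF-β followed each other, with Pearson's r of 0.95 for Fbln2 and Emilin1, 0.90 for Fbn1 and Emilin1, and 0.87 for Fbn1 and Fbln2 on log2 CPM. Fbln5 ran against all 3, with r of −0.51 to Fbn1, −0.52 to Fbln2 and −0.59 to Emilin1. These coefficients describe libraries that share their treatment groups and scaling. Among the genes with a mean of at least 1 CPM, those with the pattern most like that of Fbn1 were Col1a2 (r = 0.988), a chain of type I collagen, Mical2 (r = 0.987), an actin oxidoreductase, and Iqgap1 (r = 0.987), a cytoskeletal scaffold protein.

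Genes that act on elastic fibres outside the 10 were taken from 6 lists, and their calls for TGF-β in empty-vector cells, where 3.88% of all tested genes were called higher and 2.01% lower, are given first. Of 7 latent TGF-β binding proteins and ligands, which tie TGF-β to microfibrils, 5 rose and 0 fell, with 4 rising in cells with Col1a1-miR-29b and 5 in those with CMV-miR-29b. They were led by Ltbp2, which went from 4.38–5.09 to 21.2–23.5 CPM with a log2 fold change of 2.22 ± 0.11, and Ltbp1, from 49.9–56.7 to 92.7–122 CPM with 1.04 ± 0.10 (SE, n = 3 per group, edgeR adjusted p = 2.54e-09 and 6.88e-06). Of 5 lysyl oxidases, which cross-link elastin and collagen, Lox rose by 0.45 ± 0.09 on the log2 scale (edgeR adjusted p = 0.00585) and the other 4 were not called. None of the 10 tested members of the wider fibulin, EMILIN and MFAP family of 13 was called in empty-vector or Col1a1-miR-29b cells. In CMV-miR-29b cells 1 was called, Mfap3l, named here after its values were seen, at 0.42 ± 0.11 on the log2 scale (SE, n = 3 per group, edgeR adjusted p = 0.0316, with 0.00552 to 0.239 over the alternatives). That call was lost without library d or e of either CMV-miR-29b group (adjusted p of 0.122 to 0.154).

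Of 10 ADAMTS and ADAMTSL names, a family of secreted proteases and protease-like proteins that bind fibrillin, 6 were tested. Of these, 3 rose and 1 fell in empty-vector cells, 1 rose and 1 fell in Col1a1-miR-29b cells, and 2 rose and 0 fell in CMV-miR-29b cells, against 3.88% and 2.01%, 3% and 1.32%, and 3.08% and 1.87% of all genes. Adamtsl3 rose by 2.05 ± 0.17 on the log2 scale, from 5.22–6.01 to 17.8–27.7 CPM (SE, n = 3 per group, edgeR adjusted p = 1.31e-06). Adamtsl2, with 0, 4 and 0 counts without and 81, 17 and 37 counts with TGF-β, was also called (edgeR adjusted p = 0.0404, with 0.00136 to 0.161 over the alternatives). That call was lost without library c or e of either empty-vector group (adjusted p of 0.0891 to 0.161). Of 11 integrins and elastin receptor genes 10 were tested, 4 rose in each background, and 1, 1 and 2 fell in empty-vector, Col1a1-miR-29b and CMV-miR-29b cells. In empty-vector cells these included Itgb3 at 1.81 ± 0.30 and Itgb5 at 0.82 ± 0.06 (SE, n = 3 per group, edgeR adjusted p = 0.0012 and 2.02e-07), subunits of receptors that bind fibrillin-1. Of 9 proteases that cleave elastin or its matrix 6 were tested, and Mmp14, the membrane-type collagenase, rose by 0.64 ± 0.07 (edgeR adjusted p = 1.11e-05) as the 1 called in empty-vector cells.

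Between Col1a1-miR-29b and empty vector with TGF-β, where 7.63% of all genes were called lower and 5.31% higher, the called genes of these lists were lower Ltbp1 (−0.40 ± 0.10 on the log2 scale), Adamtsl3 (−0.80 ± 0.17) and Mmp14 (−0.34 ± 0.07), and higher Neu1 (0.25 ± 0.06), a sialidase of the elastin receptor complex, Ctsl (0.23 ± 0.06), a lysosomal protease, and Itgb6 (SE, n = 3 per group, edgeR adjusted p = 0.0174, 0.00582, 0.00376, 0.0182, 0.016 and 0.00689). Itgb6 rested on 37 to 59 counts against 3 to 11. Without TGF-β, where 3.7% of all genes were called lower, Adamtsl3 (−0.64 ± 0.17) and Mmp14 (−0.33 ± 0.07) were lower as well (SE, edgeR adjusted p = 0.0377 and 0.0103). No gene of the 6 lists was called between CMV-miR-29b and empty vector, comparisons in which 0.00945% of all genes were called with TGF-β and 0.00473% without it, so nothing about the lists follows. Single libraries decided some of these calls. With TGF-β, Ltbp1 lost its call without library c or e of the empty-vector group or c or f of the Col1a1-miR-29b group (edgeR adjusted p of 0.0552 to 0.109), Neu1 without c, e or f of the same groups (0.0874 to 0.096), and Ctsl without d of the empty-vector group or f of the Col1a1-miR-29b group (0.0602 and 0.0843). Adamtsl3 without TGF-β lost it without any 1 of the empty-vector libraries or without d or f of the Col1a1-miR-29b group (edgeR adjusted p of 0.0517 to 0.133).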

How the data were processed

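Poly(A) RNA of MEF cells was prepared with a stranded TruSeq protocol and sequenced, 18 libraries in 6 groups of 3, with groups taken from the sample labels. The authors trimmed reads with cutadapt, mapped them with HISAT2 and assembled transcripts with StringTie; the step from assemblies to counts is not given in the sources used here. The deposited values are raw counts and FPKM per gene. The submitters' processing notes name another mouse build (mm9), but 52506 of the 55450 genes, 8 of the 10 members among them, have the coordinates of GENCODE M21, so positions are given on GRCm38. In the Col1a1-miR-29b groups, 2 FPKM columns could not be matched to a sample and were not used, and FPKM levels rest on 16 libraries. FPKM was listed as 0.0001 in place of 0. Columns of the authors' own comparisons (fold changes and p-values) were not used.

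The tests used edgeR 4.0.16 (R 4.3.3). After filterByExpr, which left 21161 genes, and TMM scaling (factors 0.968 to 1.03), all 18 libraries were fitted with 1 mean per group, and 11 comparisons were made by the quasi-likelihood F test. P-values were adjusted by Benjamini-Hochberg over all tested genes and called at 0.05. CPM are TMM-scaled. Standard errors came from the F statistic. Nothing says that the 3 libraries of a group came from separate cultures beyond being repeated experiments, so p-values measure the spread between these libraries. Replicates differed far beyond counting error (mean chi-square per gene of 50.0 to 80.4), so none was counted as a duplicate. The scripts were tested on simulated data.

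Named genes were the 10 members, the 2 genes of each pathway list with the largest called change with TGF-β in empty-vector cells, up to 3 a list called between a miR-29b vector and empty vector, the 3 genes most like Fbn1, and the check genes Mir29b-1, Mir29b-2, Acta2 and Col1a1, with 1 further check gene not reported here. The members and lists were chosen with earlier results of these data known. Of the listed names, Adamtsl6 had no row in the table under that name. Matches to the miR-29 seed were counted in the longest GENCODE 3′ UTR. Figures were drawn with matplotlib 3.10.9 in Python 3.11.15. Alternatives were DESeq2 1.42.0, DESeq2 size factors, scaling by total counts, no filter, at least 10 counts in every library, only the groups compared, the replicate letter as a block, and leaving out single libraries or both f libraries.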

Additional observations from a re-analysis of the deposited data

How the results depend on the processing

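Fbn1, Fbln2 and Emilin1 rose with TGF-β in all 3 vector backgrounds under the 14 alternatives for each, 126 results in all. Fbn1 was lower with Col1a1-miR-29b and TGF-β under the 14 alternatives of that comparison. The count of members called changed in 4 comparisons. For TGF-β in CMV-miR-29b cells DESeq2 called 1 member lower (Fbln5) in place of 0. For Col1a1-miR-29b against empty vector with TGF-β, 1 member (Efemp2) was called higher in place of 0 with DESeq2, with scaling by total counts and with at least 10 counts in every library, and 0 to 1 when single libraries were left out. For CMV-miR-29b against empty vector with TGF-β, 1 member (Fbn1) was called lower in place of 0 with DESeq2, and 0 to 1 when single libraries were left out. For Col1a1-miR-29b against empty vector without TGF-β, the count of members called lower was 1, and it was 2 (Fbn1 and Fbln2) with only the groups compared, 0 with the replicate block, 0 without the f libraries, and 0 to 1 when single libraries were left out. The cause of these changes was not tested. In Col1a1-miR-29b cells the Fbln5 log2 fold change with TGF-β turned from −0.093 to 0.050 with the replicate block and 0.040 without the f libraries, and ran from −0.32 to 0.047 when single libraries were left out (0.0077 and 0.047 without untreated libraries d and f). No pairing by the letters c, d and e was seen in the correlation of deviations from group means. Its mean was 0.00885 over 36 pairs of the same letter (−0.0719 to 0.0927). Over 70 pairs of different letters it was −0.00423 (−0.113 to 0.125). A mean over all pairs and genes cannot show that libraries of the same letter came from separate experiments. Of the pathway genes, Adamtsl2 lost its call in 7 of 13 settings and Mfap3l in 8 of 14, and with the replicate block (f libraries left out) Ltbp1 (adjusted p = 0.109), Adamtsl3 (0.0547), Itgb6 (0.0593), Neu1 (0.12) and Ctsl (0.116) with TGF-β and Adamtsl3 (0.192) and Mmp14 (0.0835) without it were no longer called; edgeR was used for these.

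Over all genes, the counts called moved most in the vector comparisons. Col1a1-miR-29b against empty vector without TGF-β had 543 genes higher and 784 lower, against 898 and 1423 with DESeq2, 63 and 98 with the replicate block and 158 and 239 without the f libraries; with TGF-β it had 1123 and 1615, against 387 and 765 with the block and 315 and 757 with only the groups compared. CMV-miR-29b against empty vector with TGF-β had 2 and 0, against 140 and 124 with DESeq2 and 42 and 118 without library d of the treated empty-vector group. CMV-miR-29b against Col1a1-miR-29b had 215 and 193 with TGF-β, against 580 and 511 with DESeq2 and 3 and 10 with the block, and 212 and 170 without it, against 701 and 478, and 16 and 13. For TGF-β in empty vector, 820 and 425 became 423 and 195 with only the groups compared. Depth limits Eln, Fbn2, Mfap2 and Mfap5.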
